A study of Mus musculus with 5 samples.

Results

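Genes of the tumour necrosis factor (TNF) superfamily were followed in sorted mouse thymic dendritic cells before and 4 days after total body irradiation (TBI). The members were chosen by name: every gene in the count table whose symbol is Tnfsf (ligands) or Tnfrsf (receptors) followed by a digit. This gave 31 of 18051 genes, 11 ligands and 20 receptors, on 11 chromosomes with 9 on chromosome 4. Family genes with other kinds of symbol, such as Tnf and Fasl, are given separately as neighbours of the pathway.

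All mice were C57BL/6J aged 6 to 8 weeks with no transgene named in the labels. One group was untreated (2 libraries) and the other was harvested 4 days after TBI (3 libraries). The radiation dose is not given in the sources used here. Thymi were digested and pooled, and cells were sorted as CD45+, MHC class II+ (the labels write MHC11+) and CD11c+, a gate that other MHC class II+ cells such as macrophages and B cells can also enter. The labels do not say that the libraries of a group came from separate pools of mice, so p-values measure the spread between these libraries, which may be technical. Values per library are given in the order of the replicate numbers.

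TNF superfamily ligands are mostly membrane-bound trimers that can be shed, and their receptors cluster on binding and recruit TRAF adaptors or, where they carry a death domain, adaptors of caspase activation. Several ligand-receptor pairs act between antigen-presenting cells and T cells as costimulators, others sustain B cells and plasma cells, and others organise lymphoid tissue. In the thymus, RANKL and CD40 ligand from lymphoid cells are known for driving the maturation of medullary epithelium.

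Depth was similar in both groups, with totals of 7346330 and 7227000 reads for the untreated and 7549053 to 8428589 for the TBI libraries. At this depth 1 read was worth 0.123 to 0.145 CPM (counts per 1000000 reads, scaled with TMM) and 3 reads 0.370 to 0.434 CPM. TBI replicate 1 stood apart: the chi-square per gene over all genes, which is 1 for pure counting error, was 24.4 and 29.2 between it and the other TBI libraries and 10.2 between those. The sorted cells carried the defining genes of conventional dendritic cells in both groups, at different levels. By edgeR, 7 of 9 core genes were lower after TBI and 0 higher. At an unadjusted p under 0.05, 1 was higher, and DESeq2 or limma-voom called 0 higher. The largest fall was in Flt3, the receptor of the cytokine that sustains dendritic cells, at 312 and 343 CPM against 34.7, 41.5 and 34.5 CPM. Its log2 difference (TBI minus untreated) was -3.15, against a median of -0.62 over the 9 genes. Irf8 (-2.01), Ciita (-1.58) and Zbtb46 (-1.25) were also lower. The fall was smaller in Itgax (-0.62), H2-Ab1 (-0.6) and H2-Aa (-0.47), and Irf4 and Batf3 were not called. Macrophage genes moved the other way in 14 of 15 cases, and their summed level was 3427 to 4069 CPM in untreated and 25050 to 27550 CPM in TBI libraries. Dendritic cell subsets differed in direction: all 10 plasmacytoid and all 7 type 1 genes were lower, 4 of 6 type 2 genes were higher (sums of 1156 to 1270 CPM against 2955 to 3495 CPM), and CCR7 mature genes were divided, with 3 of 12 higher and 5 lower. Monocyte genes summed to 2585 to 3072 CPM against 29400 to 34850 CPM (4 of 7 tested higher, 2 lower). Most of these sums was Lyz2, at 2158 and 1681 CPM against 31750, 27100 and 23930 CPM. Ccr2, Fn1 and F13a1 were also higher. Ly6c2 (log2 difference -1.3 ± 0.34, SE, edgeR adjusted p = 0.0251) and Plac8 (-0.76 ± 0.18, 0.0199) were lower. Sums for natural killer and innate lymphoid genes were 240 to 245 CPM against 1228 to 1455 CPM (10 of 14 higher, 1 lower), and those for B cell genes 217 to 226 CPM against 315 to 482 CPM (6 of 10 tested higher, 2 lower). In bulk libraries such as these, a change in the number of cells of a type and a change in RNA per cell cannot be told apart. Among the remaining lists, 3 of 7 tested neutrophil genes were higher and 1 lower, and 2 of 7 thymic epithelium genes were lower. Of 6 mast cell and basophil genes tested, Kit was lower and the others were not called. The sum of that list was 217 and 208 CPM against 65.3, 138 and 481 CPM. TBI replicate 3 alone was high in Cpa3 (53 and 21 counts against 36, 27 and 1112) and Cma1 (0 and 7 against 13, 1 and 1006). These 2 genes were singled out after their values were seen. No core dendritic cell, macrophage or natural killer gene of these lists was at 0 in a whole group. Among called genes of these lists, Lyve1 passed the filter on low counts through the TBI libraries alone. Il4i1, Cr2 and Mpo passed it through the untreated libraries alone. Each had to be higher in that group to be tested. The part of these marker differences in the values below was not tested.

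Of the 28 members with enough reads to be tested, 17 were higher after TBI by edgeR's quasi-likelihood test at an adjusted p of 0.05: 7 of 11 ligands and 10 of 17 receptors. Among all 12046 genes tested, 13.3% were higher and 9.77% lower. No member was called lower by edgeR, by DESeq2 or by limma-voom, and 1 had a lower value at an unadjusted p under 0.05, Tnfrsf13b. In each of the 17, every TBI library lay above every untreated library, a pattern that 27.8% of all tested genes showed. The 2 members Tnfrsf8 and Tnfrsf17 passed the filter on low counts through the TBI libraries alone and had to be higher there to be tested. In Tnfrsf25, 1 untreated and 3 TBI libraries were over the limit of that filter, so the TBI libraries were needed for it to be tested. With no filter, the median log2 difference (TBI minus untreated) was 1.63 over the 11 ligands, with 10 above 0, and 0.83 over the 20 receptors, with 16 above 0, against -0.02 over 16575 genes. Scaling by library size alone shifted the median of all tested genes to -0.23 and the share of higher calls among all calls from 57.6% to 36.8%. All 17 called members stayed above 0 under it, and 15 of them stayed called. The count of receptors called higher depended on single libraries. With an untreated library left out, which leaves 1 in that group, fewer ligands, fewer receptors and fewer of all genes were called higher. When TBI replicate 3 was dropped, 6 ligands and 6 receptors were called higher, beside 12.2% of all genes tested. Without TBI replicate 1, which stood apart, 7 ligands and 11 receptors were called higher, beside 17.8% of all genes tested.

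**Figure D1:**
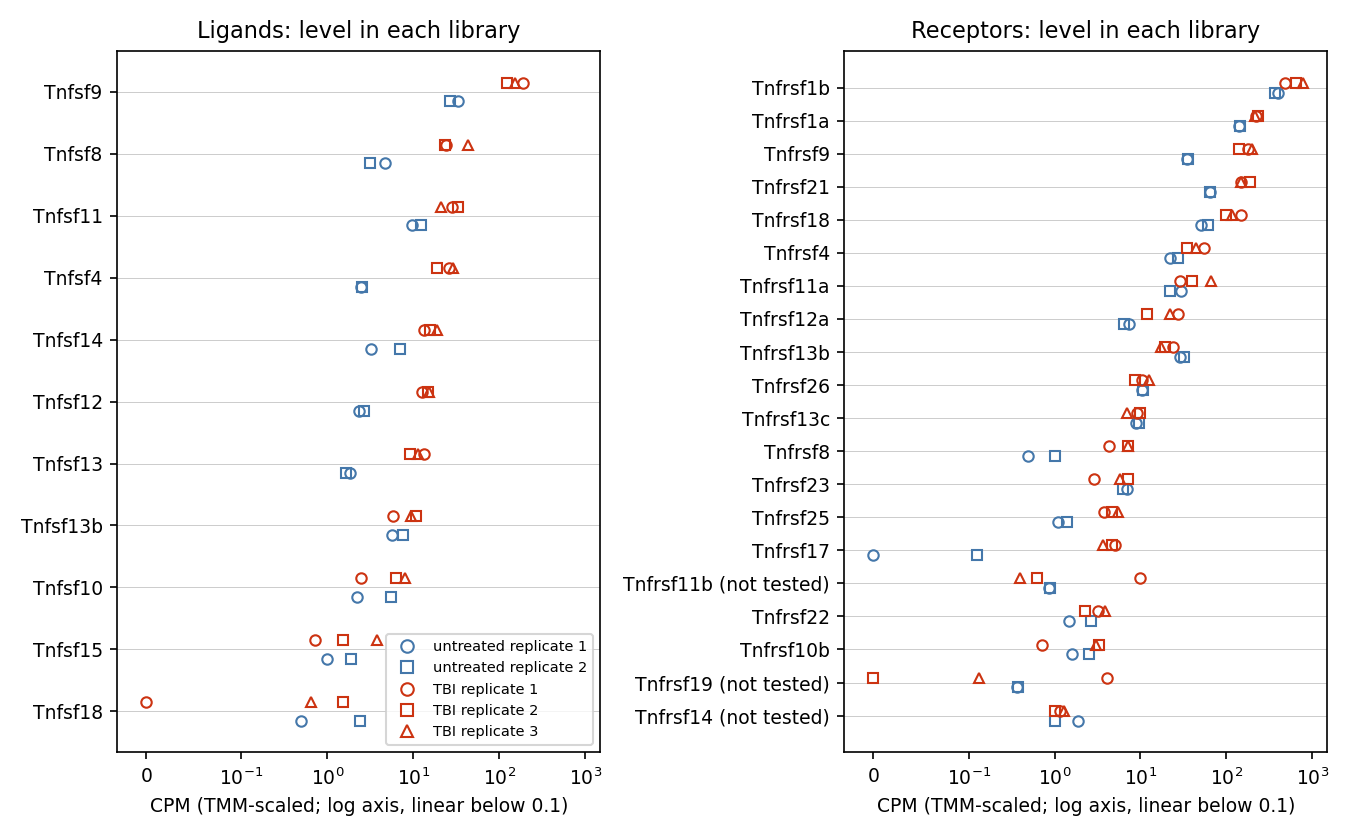
Level of each member in each of the 5 libraries, in CPM on a log axis that is linear near 0, with untreated libraries in blue, TBI libraries in red, 1 symbol per replicate, and ligands and receptors in separate panels. Tnfrsf1b was the highest member in every library, at 370.2 to 779 CPM, and Tnfrsf17 went from 0 and 1 counts to 28 to 37 counts.

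**Figure D2:**
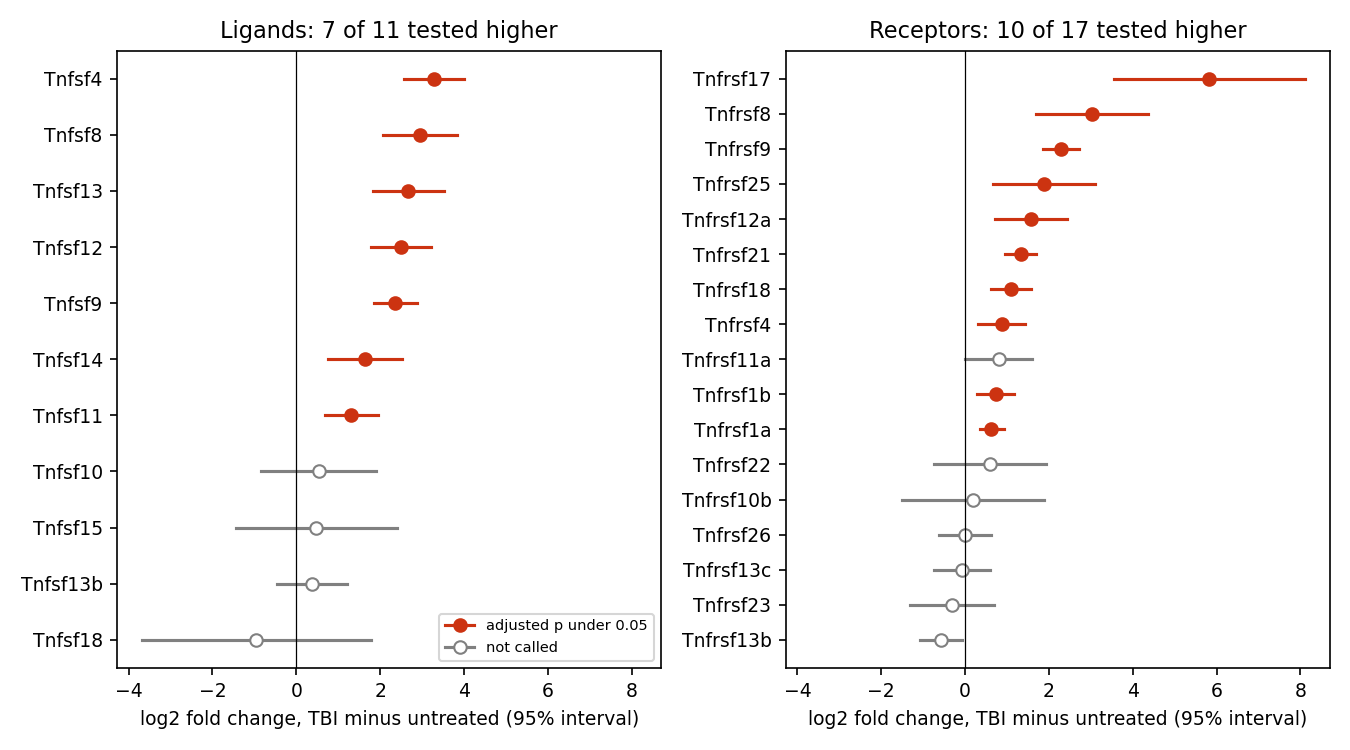
Log2 difference of each tested member, TBI minus untreated, with its 95% interval from the edgeR fit, ligands left and receptors right, filled where called. All 17 called members lie to the right of 0, and Tnfrsf13b, Tnfrsf13c, Tnfrsf23 and Tnfsf18 have estimates below 0 without passing the threshold.

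The costimulatory pairs held most of the largest differences, with 8 of 10 members higher, beside 13.3% of all genes tested. The 8 include Tnfrsf8, which passed the filter on low counts through the TBI libraries alone, and Tnfrsf25, which had 1 untreated library over its limit. Tnfsf4 (OX40 ligand, chromosome 1, 161395409 to 161418410, GRCm38), which antigen-presenting cells show to activated T cells, stood at 2.47 and 2.53 CPM in untreated and at 25.7, 19.0 and 28.7 CPM in TBI libraries. Tnfsf8 (CD30 ligand, chromosome 4, 63831308 to 63861347) stood at 4.69 and 3.16 CPM against 24.3, 23.2 and 43.6 CPM. Tnfsf9 (4-1BB ligand, chromosome 17, 57105325 to 57107757) had the highest CPM of the 11 ligands named Tnfsf in both groups, at 33.3 and 26.8 CPM against 189, 124 and 152 CPM. Outside the naming rule, the ligand Ltb was higher still in the untreated libraries, at 69.6 and 65.2 CPM against 113, 78.0 and 77.7 CPM. In all 3 Tnfsf genes the lowest TBI library was several times the highest untreated one. Tnfsf4 rose 9.74-fold (log2 difference 3.28 ± 0.31, SE, edgeR adjusted p = 0.000159), Tnfsf8 rose 7.7-fold (2.95 ± 0.39, 0.000978) and Tnfsf9 rose 5.15-fold (2.36 ± 0.22, 0.000155). An annotated noncoding RNA on the other strand, Gm11110, covers 14.9% of the exon bases of Tnfsf9, and the strand setting of the counting is not given in the sources used here. Tnfsf18 (GITR ligand) lies downstream of Tnfsf4 on chromosome 1 (161494655 to 161505290) and held only 4 and 19 counts against 0, 12 and 5 and did not pass (-0.95 ± 1.19, edgeR adjusted p = 0.604), and Tnfsf15 (TL1A) held 8 and 15 counts against 5, 12 and 29 (0.48 ± 0.83, 0.716).

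The receptors of the same pairs were also higher. Tnfrsf9 (4-1BB, chromosome 4, 150914562 to 150946102), induced on activated T cells and on dendritic cells, was at 34.4 and 35.3 CPM against 176, 141 and 198 CPM, a 4.93-fold rise (2.30 ± 0.19, edgeR adjusted p = 6.78e-05). Tnfrsf8 (CD30, chromosome 4, 145267137 to 145315164) held 4 and 8 counts against 30, 57 and 55, or 0.494 and 1.01 CPM against 4.34, 7.22 and 7.18 CPM (3.03 ± 0.58, 0.0063). Tnfrsf18 (GITR), best known from regulatory T cells, was at 51.0 and 60.8 CPM against 147, 98.1 and 115 CPM, 2.14-fold higher (1.10 ± 0.20, 0.00555). The separation was narrower for Tnfrsf4 (OX40), which lies beside it on chromosome 4 (156013843 to 156016612 against 156026164 to 156028895), at 22.1 and 27.1 CPM against 55.1, 35.2 and 44.3 CPM (0.87 ± 0.24, 0.0327). Tnfrsf25 (DR3, the receptor of TL1A) held 9 and 11 counts against 26, 37 and 42 (1.88 ± 0.53, 0.0335). Without untreated replicate 1, adjusted p was 0.0734 for Tnfrsf18, 0.0811 for Tnfrsf8, 0.272 for Tnfrsf4 and 0.262 for Tnfrsf25. Without untreated replicate 2 it was 0.128 for Tnfrsf4 and 0.202 for Tnfrsf25, without TBI replicate 2 it was 0.0573 for Tnfrsf25, and without TBI replicate 3 it was 0.0652 and 0.0718 for Tnfrsf4 and Tnfrsf25. Library size alone gave 0.0786 for Tnfrsf4, and the replicate block gave 0.0583 for Tnfrsf4 and 0.0987 for Tnfrsf25, while limma-voom gave 0.0546 for Tnfrsf25. An annotated antisense gene covers 27.2% of the exon bases of Tnfrsf18. Of 4 regulatory T cell genes, Foxp3, Il2ra and Ctla4 were higher and Ikzf2 lower (-1.89 ± 0.35, edgeR adjusted p = 0.00588), and limma-voom called 2 higher. They summed to 59.5 to 69.7 CPM against 222 to 249 CPM. After TBI this was mostly Ctla4 (mean 135 CPM) and Il2ra (87.7 CPM), while Foxp3 held 14 and 8 counts against 37, 30 and 49. T cell genes summed to 2900 to 3291 CPM against 1848 to 2004 CPM (2 of 14 higher, 8 lower).

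Upstream sequence (RefSeq, GRCm38.p6) was read for all members with an entry, and is shown for the costimulatory genes that hold an NF-kB match and for 1 that does not. Of the 31 members, 24 matched by symbol, with 28 starts, and 14 of the 17 called members were among them. The 250 bases before each start were searched on both strands for the NF-kB consensus, the site of the factor that many of these receptors activate. It was found in 3 of the 14 called members (Tnfrsf8, Tnfrsf9 and Tnfrsf25) and in 0 of the 10 others. Counted per start, 3 of 28 (10.7%) held it, near the 7.25% of 32851 mouse promoters, and 2 of the 3 are the second start of a gene with more than 1. The 3 are shown 5′ to 3′ on the gene's strand beside Tnfsf8, the ligand of CD30, which has 0 matches, and capitals mark the match. Windows are chr4:145315165-145315414 (minus strand) for Tnfrsf8, chr4:150927749-150927998 (plus) for the second start of Tnfrsf9, chr4:152116093-152116342 (plus) for the second start of Tnfrsf25 and chr4:63861285-63861534 (minus) for Tnfsf8.
Tnfrsf8: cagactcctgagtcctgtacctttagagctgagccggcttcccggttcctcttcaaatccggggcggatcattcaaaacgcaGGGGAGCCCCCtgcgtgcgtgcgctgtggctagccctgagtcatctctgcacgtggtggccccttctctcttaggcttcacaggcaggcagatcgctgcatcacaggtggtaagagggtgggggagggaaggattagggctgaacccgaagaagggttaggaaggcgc
Tnfrsf9: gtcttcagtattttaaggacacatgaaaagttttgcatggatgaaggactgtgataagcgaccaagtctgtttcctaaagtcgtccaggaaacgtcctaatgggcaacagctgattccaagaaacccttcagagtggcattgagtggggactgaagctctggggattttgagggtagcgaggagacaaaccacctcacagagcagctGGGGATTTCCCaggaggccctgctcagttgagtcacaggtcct
Tnfrsf25: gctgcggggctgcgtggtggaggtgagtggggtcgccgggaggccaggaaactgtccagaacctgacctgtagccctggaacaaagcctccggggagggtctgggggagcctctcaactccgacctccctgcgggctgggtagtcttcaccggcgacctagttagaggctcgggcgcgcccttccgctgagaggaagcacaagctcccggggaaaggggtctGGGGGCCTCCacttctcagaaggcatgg
Tnfsf8: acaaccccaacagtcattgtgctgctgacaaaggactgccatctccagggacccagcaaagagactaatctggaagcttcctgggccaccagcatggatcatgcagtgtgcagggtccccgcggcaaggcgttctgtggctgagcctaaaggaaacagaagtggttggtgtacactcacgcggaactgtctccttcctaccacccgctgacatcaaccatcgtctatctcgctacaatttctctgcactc
The match lay 168 to 158 bases before the start in Tnfrsf8, 43 to 33 in Tnfrsf9 and 28 to 19 in Tnfrsf25. The first starts of Tnfrsf9 and Tnfrsf25 held 0 matches. The AP-1 motif TGANTCA was found at 5 of the 28 starts (17.9%, against 6.75% of all promoters) and TATAAA, on either strand, at 4 (14.3%, against 12.4%). TATAAA lay on the gene's strand in Tnfsf18 and Tnfrsf17 and on the other strand in Tnfsf11 and Tnfrsf23. These are letter matches in a short window and no measure of binding.

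Both receptors of TNF itself rose, by less. Tnfrsf1a (TNFR1), which carries a death domain, was at 141 and 146 CPM against 221, 232 and 215 CPM, 1.55-fold higher (0.63 ± 0.12, edgeR adjusted p = 0.00763). Tnfrsf1b (TNFR2), found mainly on immune cells, was at 401 and 370.2 CPM against 485, 648 and 779 CPM, 1.65-fold higher (0.73 ± 0.19, 0.0292). Tnfrsf21 (DR6), another receptor with a death domain, rose 2.52-fold from 64.5 and 63.6 CPM to 149, 187 and 147 CPM (1.33 ± 0.16, 0.000618). The 2 TNF receptors had the smallest differences among the 17 called members. Leaving out untreated replicate 1 or 2 gave adjusted p of 0.13 and 0.109 for Tnfrsf1a and of 0.119 and 0.186 for Tnfrsf1b. For Tnfrsf1b it was also 0.0893 without TBI replicate 2, 0.0639 without TBI replicate 3, 0.106 with library size alone and 0.0501 with the replicate block.

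The tissue repair pair was higher on both sides. Tnfsf12 (TWEAK) was at 2.34 and 2.66 CPM against 12.6, 14.7 and 15.4 CPM, a 5.66-fold rise (2.5 ± 0.31, edgeR adjusted p = 0.000694). Its receptor Tnfrsf12a (FN14) was at 7.28 and 6.45 CPM against 27.6, 12.0 and 22.1 CPM (1.58 ± 0.37, 0.0178), with TBI replicate 2 the lowest of the TBI libraries. For Tnfrsf12a adjusted p was 0.0909 and 0.125 without untreated replicate 1 or 2 and 0.0526 without TBI replicate 3. The neighbouring Tnfsf13 (APRIL), which sustains plasma cells, was at 1.85 and 1.64 CPM against 13.2, 9.24 and 11.2 CPM, a 6.36-fold rise (2.67 ± 0.37, 0.00127). The read-through gene Tnfsfm13 shares 48.3% of the exon bases of Tnfsf12 and 60.0% of those of Tnfsf13, and was itself higher, at 4 and 5 counts against 15, 28 and 42 (2.70 ± 0.73, 0.0283). How reads in the shared exons were assigned is not given in the sources used here, so the split among these 3 genes is uncertain.

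In the B cell survival arm, APRIL and BCMA were higher, and BAFF and its main receptor did not pass the test. Tnfsf13b (BAFF) was at 5.68 and 7.59 CPM against 5.78, 10.8 and 9.27 CPM (0.38, 95% interval -0.46 to 1.22, edgeR adjusted p = 0.504). Tnfrsf13c (BAFF receptor) was at 8.76 and 9.61 CPM against 9.11, 10 and 7.05 CPM (-0.07, -0.74 to 0.60, 0.881). Groups overlapped in both genes. Tnfrsf13b (TACI, a receptor of BAFF and APRIL) was the 1 member whose TBI libraries all lay below the untreated ones, a pattern of 28.3% of tested genes, at 28.6 and 32.0 CPM against 24.0, 19.5 and 17.5 CPM, without passing the threshold (-0.58 ± 0.22, 0.094). It passed without TBI replicate 1 (-0.71, 0.0174) and with library size alone (-0.81, 0.0242). Tnfrsf17 (BCMA, chromosome 16, 11313812 to 11320074), the plasma cell receptor of APRIL, held 0 and 1 counts against 35, 37 and 28, a ratio of 71.3 after division of the summed counts by the summed TMM-scaled library sizes, with a 95% exact binomial interval of 12.5 to 2842 that covers counting error only (edgeR adjusted p = 0.00282). The 7 plasma cell genes did not move one way: Sdc1 and Jchain were higher, Slamf7 was lower (-0.59 ± 0.14, 0.0194), and 4 were not called (Xbp1 at -0.06, Irf4 at -0.54, Mzb1 at -0.41 and Prdm1 at 0.66), with a median of -0.06. Sdc1 was even among the TBI libraries, with 94 and 67 counts against 598, 590 and 608, and Jchain was uneven, with 264 and 273 counts against 9717, 1159 and 4419.

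Among the genes of lymphoid organisation, both ligands were higher. Tnfsf11 (RANKL) was at 9.75 and 12.4 CPM against 28.2, 33.2 and 21.0 CPM, 2.48-fold higher (1.31 ± 0.27, edgeR adjusted p = 0.00989). Tnfsf14 (LIGHT) was at 3.21 and 7.08 CPM against 13.2, 15.7 and 19.1 CPM, 3.1-fold higher (1.63 ± 0.38, 0.0164). Their untreated libraries lay below all TBI libraries, though those of Tnfsf14 were far apart. Adjusted p without untreated replicate 1 was 0.117 for Tnfsf11 and 0.145 for Tnfsf14, without untreated replicate 2 it was 0.0515 for Tnfsf11, and without TBI replicate 3 it was 0.0514 for Tnfsf14. Tnfrsf11a (RANK), the signalling receptor of RANKL, was at 29.5 and 22.0 CPM against 28.8, 39.3 and 66.3 CPM and did not pass (0.80 ± 0.35, 0.139). Its TBI libraries were spread widely, and without TBI replicate 1 it passed (1.03, 0.0174). Tnfrsf11b (osteoprotegerin), the soluble decoy of RANKL, had too few reads to be tested, with 7 and 7 counts against 68, 5 and 3. Tnfrsf19 (TROY) had 3 and 3 counts against 28, 0 and 1, and Tnfrsf14 (HVEM, the receptor of LIGHT) 15 and 8 counts against 8, 8 and 10, also untested. TBI replicate 1 alone was high in Tnfrsf11b and Tnfrsf19, which were singled out after their values were seen. The 12 mesenchyme and endothelium genes (5 of 10 tested higher, 3 lower) summed to 165 and 142 CPM in untreated and to 302, 80.3 and 174 CPM in TBI libraries. By limma-voom 2 of them were higher. Col1a1, Col1a2, Col3a1 and Lum passed the filter on low counts through the TBI libraries alone, so they had to be higher there to be tested. Cdh5 passed it through the untreated libraries alone and had to be lower after TBI. The 302 CPM were mostly Dcn (186 CPM) and Lum (44.8 CPM), while Col1a1, Col1a2 and Pdgfrb were highest in TBI replicate 3 and Pecam1 and Kdr were lowest in TBI replicate 1 among the TBI libraries.

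Of the 5 members of the TRAIL group, 0 passed the edgeR test, 0 had an unadjusted p under 0.05, and 0 passed with DESeq2 or limma-voom. Tnfsf10 (TRAIL), which induces apoptosis through DR5, was at 2.22 and 5.44 CPM against 2.46, 6.21 and 7.97 CPM (0.54, 95% interval -0.84 to 1.91, edgeR adjusted p = 0.565). Tnfrsf10b (DR5) held 13 and 20 counts against 5, 26 and 23 (0.19 ± 0.74, 0.881). The clustered decoy-type receptors on chromosome 7 gave 12 and 21 counts against 22, 18 and 30 for Tnfrsf22 (0.59 ± 0.59, 0.511), 6.91 and 6.20 CPM against 2.89, 7.09 and 5.75 CPM for Tnfrsf23 (-0.32 ± 0.44, 0.648), and 10.5 and 10.6 CPM against 10.6, 8.74 and 12.5 CPM for Tnfrsf26 (0.01 ± 0.27, 0.989). Groups overlapped in all 5. These receptors are close copies of each other, and reads may have been split among them. The interval of Tnfsf10 includes a 2-fold rise, which these libraries could not show.

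Of the 15 known ligand-receptor pairs listed for the members, 5 had both partners higher: OX40, CD30, 4-1BB, TWEAK with FN14, and APRIL with BCMA. CD30 and BCMA passed the filter on low counts through the TBI libraries alone, so they had to be higher there to be tested. Of all single genes tested, 13.3% were higher, and no such share over other gene pairs is given. In 4 pairs the ligand alone was called higher, in 3 the receptor alone, and in 3 neither. The 4 include RANKL with osteoprotegerin and LIGHT with HVEM, whose receptors had too few reads to be tested. Pairs of Tnfsf10 with the decoy-type receptors Tnfrsf22 and Tnfrsf23 were not listed, and none of these genes was called. A pair in which 1 partner passed and the other did not is not thereby shown to differ, and that difference was not tested. Per exon length, the OX40 ligand stood at 0.0828 and 0.0693 of its receptor in untreated and at 0.346, 0.4 and 0.481 in TBI libraries, with no overlap. In the 4-1BB pair, where both partners rose, ligand over receptor overlapped between groups, at 2.04 and 1.6 against 2.26, 1.85 and 1.62. In the GITR pair the ligand was at most 0.0291 of its receptor in every library, and in the CD30 pair the ratio ran from 2.84 to 8.63 in untreated and from 2.92 to 5.52 in TBI libraries. APRIL over TACI went from 0.112 and 0.089 to 0.95, 0.821 and 1.11.

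**Figure D3:**
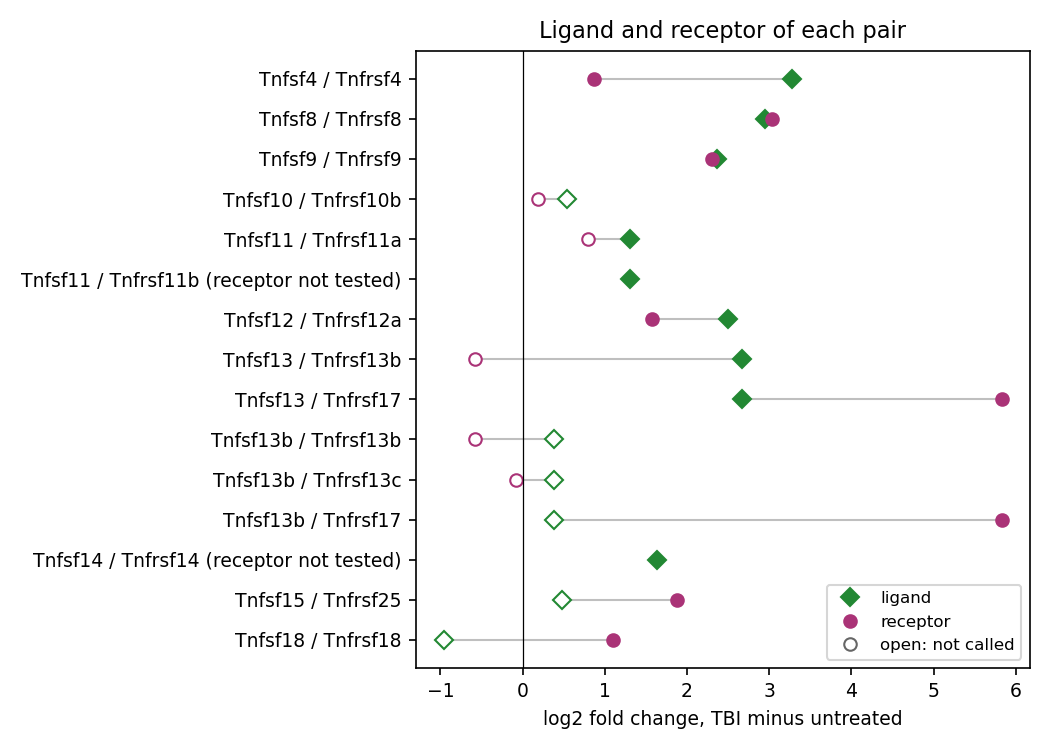
Log2 fold change (horizontal axis, TBI minus untreated) of the ligand (diamond) and the receptor (circle) of each of the 15 pairs, 1 pair per row, joined by a line. Open symbols did not pass the threshold, untested receptors are left out, and the CD30 and 4-1BB pairs have both symbols close together while in the OX40 pair the ligand (3.28) lies right of the receptor (0.87).

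Ranked by level per exon length (RPKM, CPM divided by exon length in kilobases), the untreated cells were led by receptors: Tnfrsf1b (101), Tnfrsf1a (55.4) and Tnfrsf18 (36.7), followed by the ligand Tnfsf9 (23.3), Tnfrsf4 (18.0), Tnfrsf21 (15.6), Tnfrsf9 (12.8) and Tnfrsf13b (10.7). No neighbours among these 8 overlapped between the 2 untreated libraries. After TBI, Tnfsf9 (120) moved from rank 4 to rank 2 behind Tnfrsf1b (167), whose libraries overlapped it, and Tnfsf4 (13.3) moved from rank 17 to rank 8. Tnfrsf1a (85.9), Tnfrsf18 (78.7) and Tnfrsf9 (63.1) followed, each overlapping the next. Ligands made up 12.7% and 12.5% of the summed family level in untreated and 29.0%, 24.1% and 25.2% in TBI libraries. Tnfsf9 held 53.3% to 71.7% of the ligand sum, and without it the ligand share was 4.66% and 6.26% against 10.4%, 10.8% and 10.98%. Receptors remained the larger sum in every library, at 6.9 and 6.99 times the ligands before TBI and 2.45, 3.15 and 2.97 times after it. The sums follow the few most abundant genes, and no test of ligands against receptors was made.

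**Figure D4:**
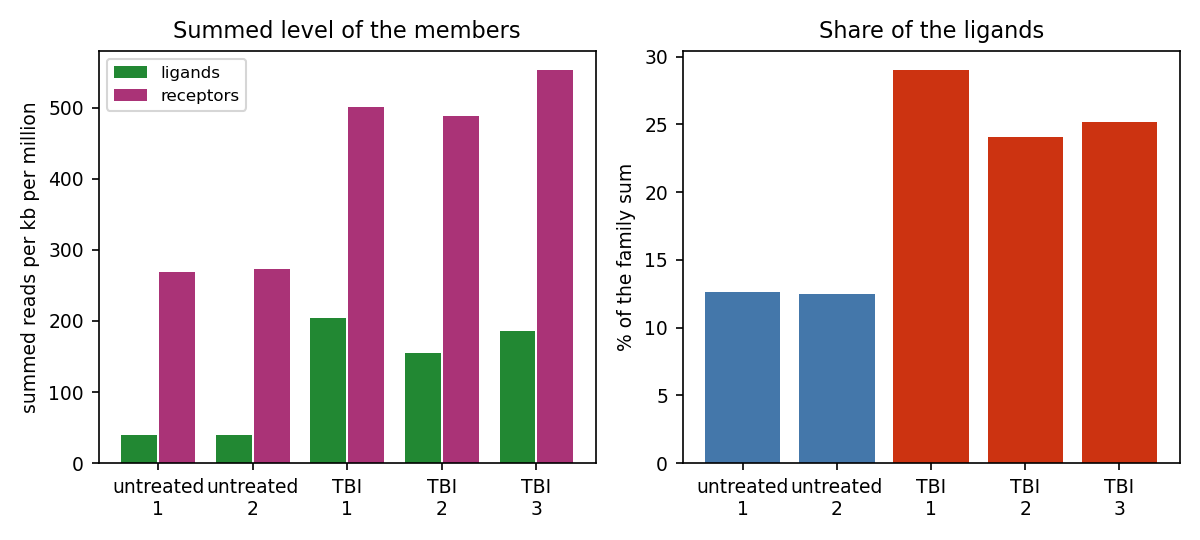
Left, summed RPKM of the 11 ligands and of the 20 receptors in each library (bars); right, the ligand sum as a percentage of the sum over all 31 members, 1 bar per library. In the right panel the 3 TBI libraries sit between 24.1% and 29.0%, above the untreated libraries at 12.7% and 12.5%.

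Family genes outside the naming rule gave a mixed picture. Of 5 ligands tested, 3 were higher and 0 lower by edgeR, with 0 lower at an unadjusted p under 0.05 and by DESeq2 or limma-voom, which called 3 and 2 higher. Fasl, the ligand of the death receptor Fas, went from 2.34 and 2.02 CPM to 49.6, 38.5 and 54.3 CPM (4.43 ± 0.29, edgeR adjusted p = 2.37e-05), and Tnf from 23.7 and 33.0 CPM to 64.2, 69.3 and 63.7 CPM (1.21 ± 0.20, 0.00302), while Cd40lg passed narrowly (1.19 ± 0.36, 0.0438). The receptors were divided, with 3 of 7 tested higher, Cd27 lower (-1.03 ± 0.19, 0.00531) and Fas and Cd40 overlapping between groups (-0.07 and -0.09). Ltbr (0.72 ± 0.19, edgeR adjusted p = 0.0251) and Relt (0.84 ± 0.19, 0.0131) had ample reads, whereas Eda2r held 0 and 1 counts against 19, 9 and 16 (ratio 31.4 per TMM-scaled library size, 95% exact binomial interval 5.34 to 1266). Eda2r, counted among the 3 higher, passed the filter on low counts through the TBI libraries alone, so it had to be higher there to be tested. Fasl is made by natural killer cells and cytotoxic T cells. The sums of the natural killer list and of a general T cell list are given above, and no list was made for cytotoxic T cells. Without untreated replicate 1 adjusted p was 0.0607 for Tnf, 0.275 for Cd40lg, 0.078 for Cd27, 0.224 for Ltbr, 0.151 for Relt and 0.215 for Eda2r. Without untreated replicate 2 it was 0.22, 0.224, 0.144 and 0.108 for Cd40lg, Ltbr, Relt and Eda2r. Cd40lg was also lost with limma-voom (0.0623), with no filter (0.0564), with upper quartile scaling (0.0507), with library size alone (0.0742), and without TBI replicate 1 (0.0545) or 2 (0.0587). Ltbr was lost without TBI replicate 2 (0.0692), with library size alone (0.0848) and with the replicate block (0.0582), and Eda2r without TBI replicate 3 (0.0547) and with the block (0.0708).

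Counts for the genes that signal below the receptors stand beside 13.3% higher and 9.77% lower among all genes tested, and no difference from that background was tested. Of 7 TRAF adaptors, 0 were higher (also at an unadjusted p under 0.05, and by DESeq2 or limma-voom) and Traf4 was lower (-1.24 ± 0.20, edgeR adjusted p = 0.00292), with a median of -0.24. Of 22 genes of the TNF receptor complex and of death signalling, 4 were higher and 0 lower (1 lower at an unadjusted p under 0.05, 0 by DESeq2 or limma-voom), with a median of 0.06 against -0.01 for all tested genes. They were Mlkl, the executor of necroptosis (2.92 ± 0.30, 0.000267), Casp8 (0.76 ± 0.14, 0.00569), its inhibitor Cflar (0.88 ± 0.17, 0.00689) and the ubiquitin ligase Birc3 (0.59 ± 0.15, 0.0219). The noncanonical NF-kB list had Birc3 as its 1 called gene of 8, with a median of -0.34. Of 6 genes of ligand shedding, Timp3, an inhibitor of the shedding proteases (3.75 ± 0.48, 0.000777), Adam10 (1.19 ± 0.24, 0.00788) and Furin (1.01 ± 0.27, 0.028) were higher. Mlkl, Traf4 and Timp3 kept their calls in all 14 alternatives. Adjusted p without untreated replicate 1 was 0.0662 for Casp8, 0.0548 for Cflar, 0.156 for Birc3, 0.068 for Adam10 and 0.121 for Furin, and without untreated replicate 2 it was 0.112, 0.124, 0.207 and 0.154 for Casp8, Cflar, Birc3 and Furin. Birc3 and Furin were also lost without TBI replicate 2 (0.0745 and 0.0951) or 3 (0.0503 and 0.0833), and with library size alone (0.105 and 0.0714).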

How the data were processed

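Thymic dendritic cells were profiled in 2 untreated and 3 TBI libraries. SMART-Seq v4 libraries were run on a HiSeq instrument, per the labels' protocols. The submitters' processing notes name STAR 2.5.2a, Subread featureCounts 1.6.0 and the mm10 build. The authors deposited raw read counts, 1 row per gene symbol, which hold whole numbers in every column. The annotation, strand setting and handling of multiply mapped reads are not given in the sources used here, so overlapping and near-identical genes may share reads. PCR copies were not removed by molecular identifiers, and intervals on counts cover counting error only. Day 4 was taken from the titles, although a treatment note mentions a different day.

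The main test was edgeR 4.0.16 under R 4.3.3 (TMM scaling, filterByExpr with minimum count 10 and total 15, quasi-likelihood F-test on the group, Benjamini-Hochberg over 12046 genes, threshold 0.05). CPM use TMM-scaled library sizes, and per-length values divide them by GRCm38 exon length. Log2 differences are TBI minus untreated and are followed by the SE. Functions were checked on simulated data. The deposited table had 0 columns of other samples, and 1476 genes had no count. A member was given per library where it passed or reached a mean of 5 CPM in a group, and others by counts; list genes were named up to 4 by smallest p, and Ltb, Fas and Cd40 were named after their values were seen. The members, the lists and the pairs were chosen with earlier results of these data known. Alternatives were DESeq2 1.42.0 size factors and Wald test, scaling by upper quartile or by library size alone, a stricter filter or none, limma-voom (limma 3.58.1), robust shrinkage, a replicate block, and leaving out 1 library at a time. Deviations from the group mean gave correlations of -0.016 and -0.01 between libraries of equal replicate number. With 2 untreated libraries these deviations mirror each other, so the check cannot decide whether equal numbers share a pool or batch. Figures were drawn with matplotlib 3.10.9.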

Additional observations from a re-analysis of the deposited data

How the results depend on the processing

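Of the 17 called members, 8 (Tnfsf4, Tnfsf8, Tnfsf9, Tnfsf12, Tnfsf13, Tnfrsf9, Tnfrsf17 and Tnfrsf21) kept their call in all 14 alternatives, 14 kept it in all that leave out no library, and all 17 stayed above 0 in all 14. Ligands higher were 7 in every alternative that leaves out no library and 5 to 7 with a library left out. Receptors higher were 10, against 8 with library size alone, 9 with limma-voom and 7 with the replicate block, and 3 to 11 with a library left out (3 and 5 without untreated replicate 1 or 2, and 6 when TBI replicate 3 was dropped). Receptors lower were 1 with library size alone and 0 to 1 with a library left out. All genes lower were 1177, against 2129 with library size alone, and 422 to 1779 with a library left out, and all genes higher 1599 against 810 to 2147. Leaving out an untreated library leaves 1, whose spread is then taken from the TBI group. Members near 0 changed sign: Tnfrsf10b was -0.03 with library size alone and -0.27 with the replicate block, Tnfrsf13c 0.06 and Tnfsf15 -0.37 with the block, and Tnfrsf26 -0.04 with upper quartile scaling, -0.22 with library size alone, -0.01 with limma-voom and -0.14 with the block. With a library left out, Tnfrsf10b ran from -0.13 to 0.61, Tnfrsf13c from -0.19 to 0.06, Tnfrsf26 from -0.12 to 0.13, Tnfsf15 from -0.34 to 1.02 and Tnfsf18 from -2.04 to 0.56. The cause was not tested. Settings for the 15 named pathway genes were run after seeing the data, and 4 kept their call in all. The stricter filter dropped Tnfrsf10b, Tnfsf15 and Tnfsf18, which gave no value there. At 1 count of 0.123 to 0.145 CPM, depth limits the members with few reads.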
